A study of Homo sapiens with 36 samples.

Results

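The 42 genes described here encode proteins of the human centromere, the kinetochore and the spindle assembly checkpoint. They were chosen as a gene module by symbol and function, not by a threshold on measured values, but with earlier results of these data known. Each symbol matched 1 gene identifier in the count tables. All 42 passed the filter on low counts, out of 15415 protein-coding genes that did so and 19942 listed.

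RNA was sequenced from HCT116, an established human colorectal cancer cell line that expressed the plant F-box protein OsTIR1 under a doxycycline-inducible promoter. The tagged groups were UHRF1-AID cells, DNMT1-AID cells and UHRF1-AID/DNMT1-AID cells, in which the named protein carried a mini auxin-inducible degron (AID) tag, and WT cells with OsTIR1 but no tagged protein. All groups, WT included, received 2 µg/mL doxycycline with 20 µM auxinole (an antagonist of OsTIR1) for 1 day, then 2 µg/mL doxycycline with 500 µM auxin, so that OsTIR1 directed degradation of the tagged proteins. Cells were collected on days 2, 6 and 8 of auxin treatment. Each of the 12 groups of line and day had 3 libraries, which makes 36. Days 0 and 4 were not analysed here, so a difference that a line carried before auxin and a response to depletion cannot be told apart. Which clone gave which library is not labelled, and p-values therefore measure only the spread between these samples. Libraries of 1 number deviated together across days within UHRF1-AID cells (correlations over genes of 0.19 to 0.38) and within DNMT1-AID cells (0.12 to 0.29), so the 3 days of these lines are not independent samples. UHRF1 is the factor that recruits DNMT1, the maintenance DNA methyltransferase, to newly replicated DNA.

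The centromere is marked by nucleosomes that hold CENP-A, a variant of the core histone that its chaperone HJURP and the MIS18 complex load after mitosis. The constitutive centromere-associated network sits on this chromatin as the inner kinetochore, and it carries the KNL1, MIS12 and NDC80 complexes, which bind spindle microtubules. Unattached kinetochores recruit BUB1, BUBR1, BUB3 and MAD2 to delay anaphase, the chromosomal passenger complex around Aurora B corrects faulty attachments, and shugoshins keep sister centromeres joined. Transcripts of many of these genes peak late in the cell cycle, when the DREAM and MuvB complexes release or activate promoters that carry a CHR element (cell cycle genes homology region, TTTGAA).

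Promoter sequence is shown for the members with this element wholly within the 50 bases upstream of the start. All of these were lower on day 8 in UHRF1-AID/DNMT1-AID cells, as were 37 of the 42 genes and 32.8% of all genes tested. This does not set them apart from the other members, and a part of the element in the fall was not tested. RefSeq promoter windows of 300 bases (250 before and 50 after each start, GRCh38.p14) were matched by symbol for 34 of the 42 genes. TTTGAA, read on both strands, was present in the windows of 15 of the 34, or 44.1%, against 18.2% of 27305 gene symbols with a window. It lay wholly within those 50 bases in the 5 genes below, against 2.88% of all symbols. Capitals mark TTTGAA, or TTCAAA where it lies on the other strand.
CENPA: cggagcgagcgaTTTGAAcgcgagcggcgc
BUB1B: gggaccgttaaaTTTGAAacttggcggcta
ZWINT: gtcgactgtgacTTCAAAgtaatcttaggg
INCENP: ggattggctgagccttcagtTTTGAAaatc
CDCA8: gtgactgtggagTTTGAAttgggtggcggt
The stretches lie at chr2:26786026-26786055, chr15:40161034-40161063, chr11:62123981-62124010 and chr1:37692481-37692510 on the plus strand for CENPA, BUB1B, INCENP and CDCA8, and at chr10:56361273-56361302 on the minus strand for ZWINT. In the CDCA8 stretch the element shares letters with a reversed CCAAT box (ATTGG). The CCAAT box itself was in 24 of the 34 genes, or 70.6%, against 39.7% of all symbols. The CHR variant TTTAAA was in 4 of the 34, or 11.8%, against 14.5% of symbols. An E2F site, searched on both strands as TTTCCCGC, TTTGGCGC, TTTCGCGC or TTTGCCGC, was also in 4 of 34, against 3.99% of symbols. CENPT, CENPB, DSN1, CENPI and NSL1 held none of these letters. No window was matched for CENPH, CENPL, CENPM, KNL1, MIS18A, BUB3, TTK and BIRC5. A match is a description of the letters and not a test of binding.

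Each library held 21074536 to 37175136 counted reads. Values are given as CPM (counts scaled to a common library size) with trimmed mean of M values (TMM) factors, and differences as log2 fold changes from edgeR's quasi-likelihood test, called at a Benjamini-Hochberg adjusted p under 0.05 over all 15415 genes whatever the fold. DNMT1 RNA was lower in DNMT1-AID cells (log2 fold change of -1.70, -1.38 and -1.63 on days 2, 6 and 8) and in UHRF1-AID/DNMT1-AID cells (-1.87, -1.67 and -2.18), whereas UHRF1 RNA did not pass the test in UHRF1-AID cells (-0.13, 0.26 and -0.32) and was lower in UHRF1-AID/DNMT1-AID cells on day 8 (-1.29). DNMT1 RNA was also lower in UHRF1-AID cells on day 2 (-0.71, adjusted p = 0.0148). It did not pass the test there on days 6 and 8 (-0.01 and -0.40). The degron acts on protein, so these RNAs do not check depletion. All 7 colon epithelial markers were detected, at 3510 to 11100 summed CPM per library. Fibroblast markers summed to 2.95 to 84.1 CPM, leukocyte markers to 0.0 to 5.6 CPM and endothelial markers to 0.23 to 3.78 CPM. In bulk RNA, fewer cells in mitosis or G2 phase and less RNA per cell cannot be told apart.

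On day 8 the kinetochore module was broadly lower in all 3 degron lines, most of all in UHRF1-AID/DNMT1-AID cells. There 37 of the 42 genes fell and 1 (CENPT) rose, against 32.8% of all genes tested called lower and 35.7% called higher. The median log2 fold change of the 42 was -0.98 in UHRF1-AID/DNMT1-AID cells, or 1.97-fold lower, where the median of all genes tested was 0.03. In UHRF1-AID cells 35 fell and 1 rose (median -0.60, against 21.0% of all genes lower and 24.2% higher), and in DNMT1-AID cells 32 fell and 2 (CENPT and PMF1) rose (median -0.54, against 22.4% lower and 25.1% higher). The same 30 genes fell in each line, and CENPT, CENPO and PMF1 fell in none. The 3 comparisons share the WT libraries of day 8, so these calls are not independent. How many of all genes tested fell in all 3 lines at once was not counted. UHRF1-AID/DNMT1-AID cells had the lowest of the 3 log2 fold changes for 39 of the 42 genes. The share of all genes tested with this order was not counted, so the 39 cannot be set against it. The summed level of the 42 genes averaged 1460, 1510 and 1150 CPM in UHRF1-AID, DNMT1-AID and in UHRF1-AID/DNMT1-AID cells, against 2010 CPM in WT cells. The share of reads from mitochondrial genes moved with this fall, at 4.68% to 7.41% in UHRF1-AID libraries, 4.79% to 7.93% in DNMT1-AID libraries and 7.72% to 10.84% in UHRF1-AID/DNMT1-AID libraries, against 2.87% to 3.73% in WT libraries of day 8, and its part in the result was not tested. Whichever library was left out, 26 of the 35 lower genes kept their call in UHRF1-AID cells, 28 of the 32 in DNMT1-AID cells and 35 of the 37 in UHRF1-AID/DNMT1-AID cells. The exceptions in UHRF1-AID/DNMT1-AID cells were CENPW, which lost its call without UHRF1-AID/DNMT1-AID replicate 1 (-0.32), without replicate 2 (-0.29) or without WT replicate 1 (-0.18), and MIS12, which lost it without WT replicate 1 (-0.21). The higher PMF1 level in DNMT1-AID cells (0.19, adjusted p = 0.0485) lost its call without DNMT1-AID replicate 1 (0.17), 2 (0.19) or 3 (0.20) or WT replicate 2 (0.13) or 3 (0.21), and was at -0.13 with a length offset.

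**Figure D1:**
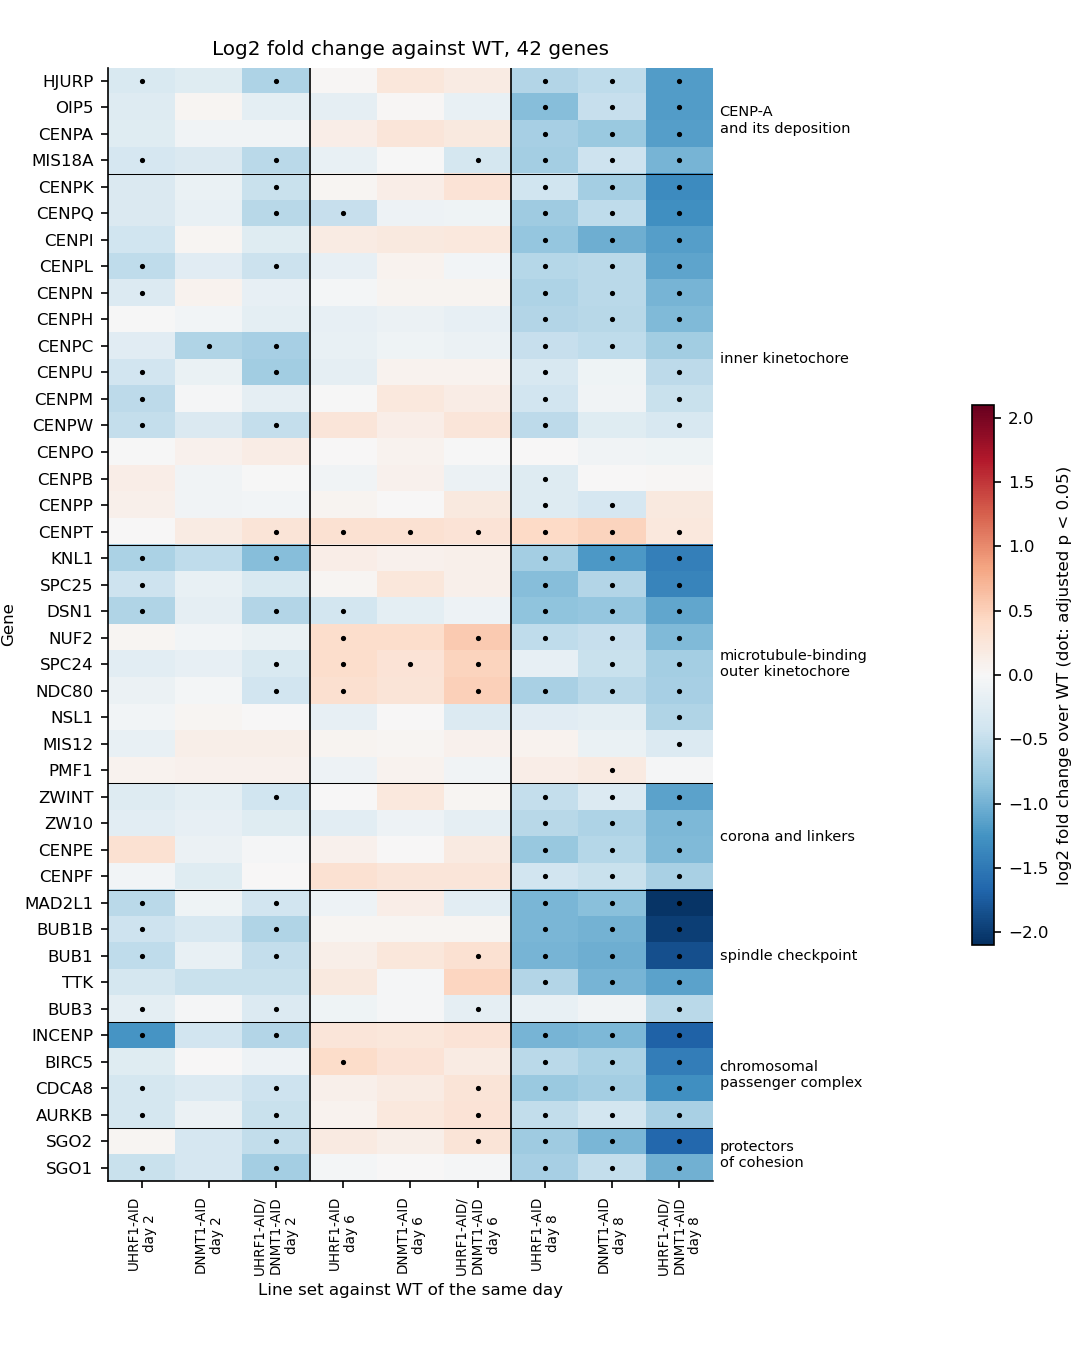
Log2 fold change over WT of the same day for the 42 genes (rows, grouped by role) in the 3 degron lines on days 2, 6 and 8 (columns). Blue is lower and red higher than WT, and a dot marks an adjusted p under 0.05 in edgeR's quasi-likelihood test. The UHRF1-AID/DNMT1-AID day 8 column holds 37 genes called lower, whereas day 6 holds 2.

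CENP-A and its deposition factors were all lower on day 8. CENPA, which encodes the centromeric histone itself, had 19.6, 14.1 and 17.2 CPM in UHRF1-AID cells, 15.1, 17.7 and 15.2 CPM in DNMT1-AID cells and 11.8, 12.6 and 12.5 CPM in UHRF1-AID/DNMT1-AID cells, against 26.5, 25.9 and 29.8 CPM in WT cells. No library of a degron line reached the lowest WT library, and the log2 fold changes were -0.69, -0.78 and -1.15 (SE of 0.10, 0.10 and 0.11, adjusted p = 1.31e-06, 2.25e-07 and 1.64e-11). HJURP, the CENP-A chaperone, had 33.3, 26.6 and 28.2 CPM in UHRF1-AID cells, 30.6, 34.2 and 28.1 CPM in DNMT1-AID cells and 20.7, 20.2 and 18.5 CPM in UHRF1-AID/DNMT1-AID cells, against 43.8, 47.9 and 42.9 CPM in WT cells. Every degron library was below every WT library, with a log2 fold change of -1.18 in UHRF1-AID/DNMT1-AID cells (SE 0.10, adjusted p = 3.72e-12). MIS18A, a subunit of the complex that primes centromeres for loading, had 12.3, 8.82 and 12.2 CPM in UHRF1-AID/DNMT1-AID cells, against 20.0, 20.3 and 25.3 CPM in WT cells. All 4 genes of this group, OIP5 (MIS18 beta) included, fell in each line, at medians of -0.70, -0.51 and -1.16 in UHRF1-AID, DNMT1-AID and in UHRF1-AID/DNMT1-AID cells. By comparison, 21.0%, 22.4% and 32.8% of all genes tested fell in these lines. In DNMT1-AID cells the MIS18A call was lost without DNMT1-AID replicate 3 (-0.33) or WT replicate 3 (-0.31). OIP5 shares 63.2% of its exonic bases with the antisense gene OIP5-AS1, and its reads cannot be assigned by strand.

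The inner kinetochore was the most divided group, with 10 of 14 genes lower and 1 higher in UHRF1-AID/DNMT1-AID cells (median -0.64). The shares of all genes tested were 32.8% lower and 35.7% higher. CENPK, which belongs to the CENP-H/I/K/M subcomplex, was the lowest, at 4.08, 2.39 and 3.70 CPM in UHRF1-AID/DNMT1-AID cells, against 9.84, 7.51 and 7.90 CPM in WT cells (log2 fold change -1.31, SE 0.17, adjusted p = 3.58e-08). Its partners moved in the same direction but by different amounts, with CENPI at -1.16, CENPH at -0.93 and CENPM at -0.47. CENPL and CENPN, which pair with each other and read CENP-A nucleosomes, fell by 1.11 and 0.98 on the log2 scale. CENPC, the scaffold that links CENP-A chromatin to the MIS12 complex, fell by 0.72. CENPB, the protein that binds a motif of alpha satellite DNA, differed little from WT in this line without an offset (0.02, SE 0.09, adjusted p = 0.828). In the same edgeR test it was lower with a length offset (-0.40, adjusted p = 0.000336) and with an offset for length and GC content (-0.83, adjusted p = 1.37e-11).

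CENPT, which recruits the NDC80 complex through its N-terminal tail, ran opposite to most of the module. It shares 10.5%, 6.7% and 2.9% of its exonic bases with TSNAXIP1, THAP11 and NUTF2 on the other strand, and its reads cannot be assigned by strand. It had 80.7, 84.7 and 79.1 CPM in UHRF1-AID cells and 88.3, 86.0 and 78.7 CPM in DNMT1-AID cells on day 8, against 59.5, 57.6 and 65.3 CPM in WT cells. It was higher in both lines without overlap, by 0.42 and 0.47 on the log2 scale (SE 0.08 each, adjusted p = 4.25e-05 and 8.51e-06). In UHRF1-AID/DNMT1-AID cells the values were 74.9, 73.3 and 65.3 CPM, the lowest at the level of the highest WT library, and the log2 fold change of 0.23 (SE 0.08, adjusted p = 0.0115) was not past the threshold without UHRF1-AID/DNMT1-AID replicate 1 (0.19) or WT replicate 2 (0.19), nor with scaling by library size only (0.04). On day 6 it was called in each line, with 73.7, 74.6 and 78.1 CPM in UHRF1-AID cells, 83.3, 70.3 and 70.5 CPM in DNMT1-AID cells and 71.5, 81.1 and 67.4 CPM in UHRF1-AID/DNMT1-AID cells, against 59.1, 59.9 and 61.6 CPM in WT cells. Every degron library on that day was above every WT library, although the call was lost in DNMT1-AID cells without DNMT1-AID replicate 1 (0.23) and in UHRF1-AID/DNMT1-AID cells without UHRF1-AID/DNMT1-AID replicate 2 (0.21).

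In the outer kinetochore 8 of 9 genes fell in UHRF1-AID/DNMT1-AID cells, 5 in UHRF1-AID cells and 6 in DNMT1-AID cells. The shares of all genes tested that fell were 32.8%, 21.0% and 22.4% in the same order. KNL1, the scaffold on which BUB1 and BUBR1 assemble, had 19.1, 13.3 and 19.8 CPM in UHRF1-AID cells, 12.8, 11.7 and 12.9 CPM in DNMT1-AID cells and 10.5, 8.65 and 12.4 CPM in UHRF1-AID/DNMT1-AID cells, against 30.8, 29.0 and 26.5 CPM in WT cells. All 9 degron libraries were below the WT libraries, with log2 fold changes of -0.72, -1.20 and -1.44 (SE 0.13 each, adjusted p = 1.99e-05, 4.92e-09 and 1.76e-11). The 4 NDC80 complex genes, NDC80, NUF2, SPC24 and SPC25, fell by 0.70, 0.92, 0.71 and 1.39 in UHRF1-AID/DNMT1-AID cells. MIS12 complex subunits split, with DSN1 at -1.10 and NSL1 at -0.63 but PMF1 at -0.02 (adjusted p = 0.855). PMF1 had 47.4, 50.3 and 51.0 CPM in UHRF1-AID/DNMT1-AID cells, against 52.9, 45.9 and 51.7 CPM in WT cells, and these ranges overlap. MIS12 itself had 17.5, 18.5 and 18.2 CPM in UHRF1-AID/DNMT1-AID cells, against 24.3, 20.6 and 21.1 CPM in WT cells, a small difference of -0.28 (SE 0.10, adjusted p = 0.0133) that the left-out WT library noted above removes. PMF1 shares 23.3% of its exonic bases with the read-through gene PMF1-BGLAP.

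Among the corona and linker genes, ZWINT, which ties the RZZ complex to KNL1, had 60.3, 52.1 and 54.4 CPM in UHRF1-AID cells, 64.3, 63.6 and 65.8 CPM in DNMT1-AID cells and 35.1, 28.0 and 45.1 CPM in UHRF1-AID/DNMT1-AID cells, against 81.9, 72.7 and 81.3 CPM in WT cells. The log2 fold changes were -0.50, -0.28 and -1.12 (adjusted p = 0.00064, 0.0414 and 4.16e-10). The small DNMT1-AID difference lost its call without any of that line's 3 libraries (-0.28, -0.27 and -0.30) and without WT replicate 1 or 3 (-0.26 each). CENPE, the plus-end kinesin of the corona, and CENPF, a large corona protein that anchors dynein regulators, fell by 0.93 and 0.67 in UHRF1-AID/DNMT1-AID cells (SE 0.19 and 0.15, adjusted p = 5.75e-05 and 0.000284). CENPE had 7.34, 3.32 and 5.23 CPM in these cells, against 10.3, 8.46 and 11.1 CPM in WT cells. CENPF had 44.0, 34.0 and 32.4 CPM in UHRF1-AID/DNMT1-AID cells, against 63.8, 61.8 and 50.3 CPM in WT cells. Neither gene overlapped between the groups.

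The spindle checkpoint genes had the lowest median of the 7 role groups in UHRF1-AID/DNMT1-AID cells (-1.84 over 5 genes). MAD2L1, BUB1B and BUB1 fell most, whereas the kinase TTK and BUB3 fell less. TTK had 21.5, 15.6 and 19.6 CPM in these cells, against 43.5, 38.6 and 41.1 CPM in WT cells. MAD2L1, which encodes MAD2, had 48.9, 39.7 and 43.0 CPM in UHRF1-AID cells, 47.8, 47.3 and 44.7 CPM in DNMT1-AID cells and 17.4, 16.5 and 27.4 CPM in UHRF1-AID/DNMT1-AID cells, against 96.8, 79.8 and 80.6 CPM in WT cells. The highest UHRF1-AID/DNMT1-AID library was below every library of the other lines, and the log2 fold changes over WT were -0.97, -0.88 and -2.06 (SE 0.12 each, adjusted p = 2.88e-08, 2e-07 and 5.17e-16). BUB1B (BUBR1) had 15.9, 13.7 and 17.3 CPM in UHRF1-AID/DNMT1-AID cells, against 59.5, 65.5 and 59.3 CPM in WT cells. BUB1, the kinase that marks the inner centromere for shugoshin, had 22.5, 19.7 and 27.9 CPM in UHRF1-AID/DNMT1-AID cells, against 83.9, 86.3 and 82.2 CPM in WT cells. These 3 genes stood near the lower end of the whole table, since 0.928%, 1.11% and 1.46% of all genes tested had a lower log2 fold change than MAD2L1, BUB1B and BUB1. BUB3, which partners both BUB1 and BUBR1, was high in every group, at 189, 180 and 173 CPM in UHRF1-AID cells, 184, 197 and 194 CPM in DNMT1-AID cells and 143, 117 and 150 CPM in UHRF1-AID/DNMT1-AID cells, against 210, 198 and 198 CPM in WT cells. It fell by 0.56 in UHRF1-AID/DNMT1-AID cells (SE 0.07, adjusted p = 2.17e-08) and did not pass the test in the other lines (-0.16 and -0.07).

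TTK, the MPS1 kinase that starts checkpoint signaling, was chosen for its spread after its values were seen. In DNMT1-AID cells it had 32.4, 15.7 and 28.9 CPM on day 2, 47.4, 23.8 and 45.6 CPM on day 6 and 24.7, 13.7 and 23.9 CPM on day 8, against 33.7, 37.3 and 35.6 CPM, 40.4, 40.0 and 38.8 CPM, and 43.5, 38.6 and 41.1 CPM in WT cells. The library numbered replicate 2 was below its 2 partners by 0.96, 0.97 and 0.82 on the log2 scale on days 2, 6 and 8. No other member and line showed a gap of the same sign above 0.45 on all 3 days. On day 8 TTK fell in DNMT1-AID cells with this library (-0.98, adjusted p = 0.000512) and without it (-0.76, adjusted p = 0.00677).

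The chromosomal passenger complex fell as a whole, with all 4 genes lower in each line on day 8. The background was 21.0%, 22.4% and 32.8% of all genes tested lower in UHRF1-AID, DNMT1-AID and in UHRF1-AID/DNMT1-AID cells. INCENP, the scaffold of the complex, had 48.4, 32.0 and 41.8 CPM in UHRF1-AID cells, 46.8, 41.7 and 37.2 CPM in DNMT1-AID cells and 23.9, 25.3 and 25.6 CPM in UHRF1-AID/DNMT1-AID cells, against 75.7, 89.8 and 76.4 CPM in WT cells. Each line was below WT without overlap, at -0.98, -0.94 and -1.69 (SE 0.13, 0.13 and 0.14, adjusted p = 3.1e-07, 7.43e-07 and 1.81e-12). AURKB, the Aurora B kinase, changed least, with 37.5, 28.3 and 38.9 CPM in UHRF1-AID/DNMT1-AID cells, against 58.1, 56.8 and 53.7 CPM in WT cells (-0.69, SE 0.10, adjusted p = 6.04e-07). BIRC5 (survivin) and CDCA8 (borealin), which target the complex to centromeres, fell by 1.45 and 1.29. Of the protectors of cohesion, SGO2 had 16.5, 16.8 and 11.8 CPM in UHRF1-AID cells, 12.6, 14.0 and 11.9 CPM in DNMT1-AID cells and 7.70, 7.47 and 8.62 CPM in UHRF1-AID/DNMT1-AID cells, against 26.7, 24.8 and 23.6 CPM in WT cells. SGO1 had 5.61, 5.88 and 6.12 CPM in UHRF1-AID/DNMT1-AID cells, against 11.5, 13 and 10.9 CPM in WT cells. Both shugoshins were lower in each line without overlap with the WT libraries, SGO2 at -0.74, -0.96 and -1.66 and SGO1 at -0.69, -0.50 and -1.0 in UHRF1-AID, DNMT1-AID and in UHRF1-AID/DNMT1-AID cells.

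**Figure D2:**
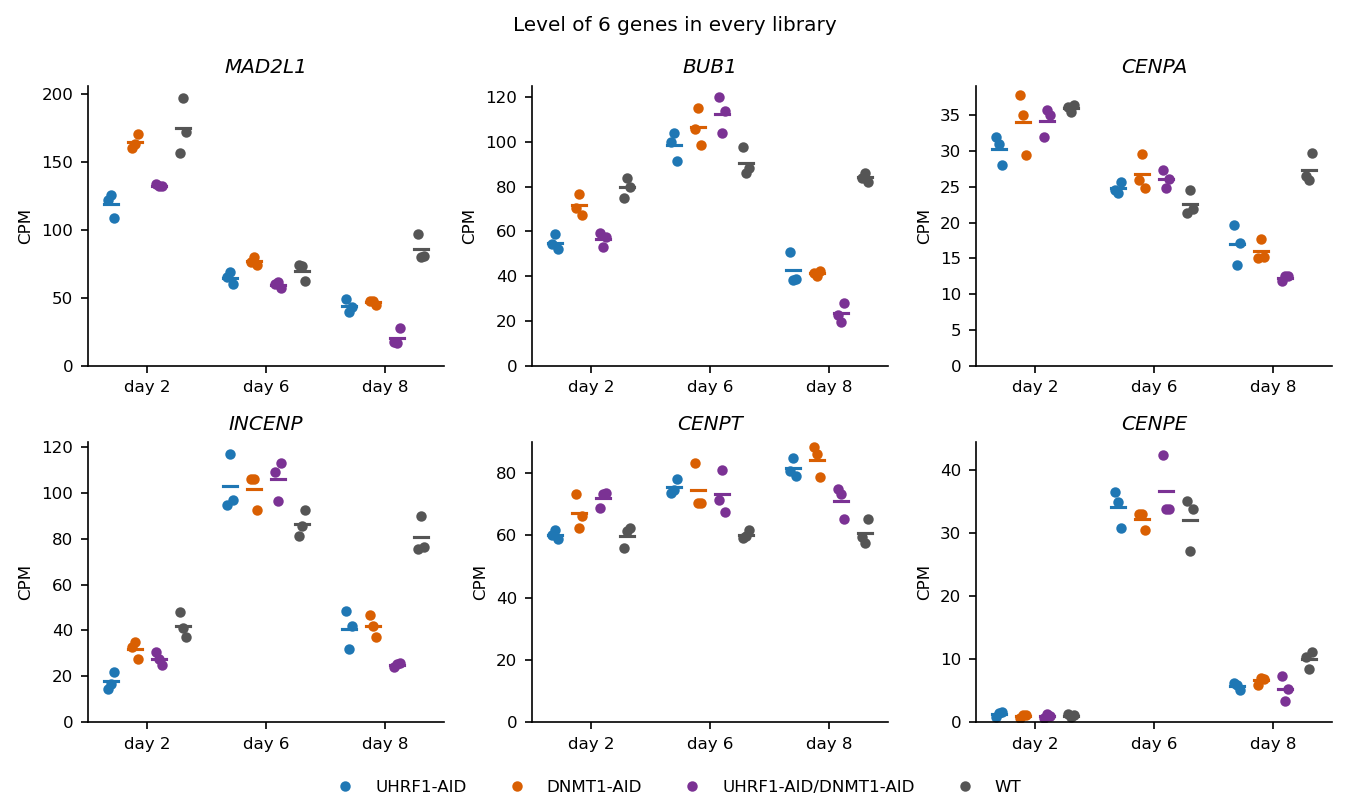
Level (CPM) of MAD2L1, BUB1, CENPA, INCENP, CENPT and CENPE in each of the 36 libraries on days 2, 6 and 8. Points are libraries, bars are group means and colors are lines, with WT rightmost on each day. On day 8 the WT points of MAD2L1, BUB1, CENPA and INCENP lie above all degron points, those of CENPT lie at or below them, and CENPE is near 0 on day 2 in all lines.

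Direct comparison of the lines on day 8 asked whether loss of both proteins went further than loss of 1. Against UHRF1-AID cells, UHRF1-AID/DNMT1-AID cells had 24 of the 42 genes lower and 2 higher (median -0.36), where 23.5% of all genes were lower and 20.4% higher. Against DNMT1-AID cells they had 29 lower and 1 higher (median -0.41), where 24.0% were lower and 22.2% higher. MAD2L1 differed by -1.10 and -1.18, BUB1B by -1.02 and -0.98, SGO2 by -0.92 and -0.69 and BIRC5 by -0.88 and -0.79 from UHRF1-AID and DNMT1-AID cells. CENPP, an inner kinetochore subunit, was higher in UHRF1-AID/DNMT1-AID cells than in either line, by 0.47 and 0.55 (adjusted p = 0.000438 and 6.52e-05). It had 26.6, 24.9 and 32.2 CPM in UHRF1-AID/DNMT1-AID cells, against 17.2, 23.0 and 20.4 CPM in UHRF1-AID cells and 17.6, 19.4 and 20.4 CPM in DNMT1-AID cells. WT cells had 24.4, 26.0 and 22.7 CPM. Against WT, CENPP was called lower in UHRF1-AID and DNMT1-AID cells and was not called in UHRF1-AID/DNMT1-AID cells. The UHRF1-AID call was lost without UHRF1-AID replicate 1 (-0.17) or 3 (-0.28) or WT replicate 1 (-0.27) or 2 (-0.22). However, 39.9% of its exonic bases are shared with IPPK. UHRF1-AID and DNMT1-AID cells differed from each other in 4 genes, with 2 higher (SPC24 and KNL1) and 2 lower (CENPB and OIP5) in UHRF1-AID cells. The background was 10.0% of all genes higher and 8.24% lower, and no member of the 4 kept its call in every leave-one-out fit. The count was 0 without DNMT1-AID replicate 2, 2 without UHRF1-AID replicate 1 and 1 without UHRF1-AID replicate 3. These 3 comparisons share their libraries with the comparisons over WT.

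On day 2 the module was already lower in UHRF1-AID and UHRF1-AID/DNMT1-AID cells, by smaller amounts. In UHRF1-AID cells 18 of the 42 genes fell and 0 rose (median -0.28), against 14.4% of all genes lower and 12.1% higher. The count was 11 without UHRF1-AID replicate 1. In UHRF1-AID/DNMT1-AID cells 22 fell and 1 rose (median -0.36), against 11.5% lower and 16.3% higher, and 17 of the 22 were called whichever library was left out. In DNMT1-AID cells 1 gene (CENPC) fell and 0 rose (median -0.14), against 0.714% of all genes lower and 2.67% higher, and CENPC lost its call without DNMT1-AID replicate 2 (-0.66) or 3 (-0.51) or WT replicate 1 (-0.63) or 3 (-0.60). No comparison between the degron lines was made on this day. At an unadjusted p under 0.05 in edgeR, 0 genes were higher in UHRF1-AID cells and 1 in DNMT1-AID cells, and DESeq2 called 0 higher in either.

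INCENP was the lowest of the 42 genes on day 2 in UHRF1-AID cells. It had 14.5, 16.7 and 22.0 CPM in UHRF1-AID cells, 32.5, 35.0 and 27.4 CPM in DNMT1-AID cells and 30.5, 27.3 and 24.8 CPM in UHRF1-AID/DNMT1-AID cells, against 48.1, 40.8 and 36.9 CPM in WT cells. The log2 fold change in UHRF1-AID cells was -1.24 (SE 0.14, adjusted p = 4.28e-08), against -0.98 in the same line on day 8, a change that did not pass the test (0.25, SE 0.19, adjusted p = 0.409). In UHRF1-AID/DNMT1-AID cells KNL1 was the lowest of the 42 at -0.90 (SE 0.18, adjusted p = 0.000256), followed by CENPU at -0.74, SGO1 at -0.72 and CENPC at -0.69. KNL1 was scarce on this day, at 3.33, 3.45 and 2.85 CPM in UHRF1-AID/DNMT1-AID cells, against 6.71, 6.10 and 5.18 CPM in WT cells. CENPL, CENPU, KNL1, DSN1, BUB1, BUB1B, AURKB, INCENP and CDCA8 were lower in both lines in every leave-one-out fit. At the other end, CENPT had 68.8, 73.2 and 73.5 CPM in UHRF1-AID/DNMT1-AID cells, against 56.0, 61.3 and 62.3 CPM in WT cells (0.26, adjusted p = 0.0129), a call lost without UHRF1-AID/DNMT1-AID replicate 3 (0.24) or WT replicate 1 (0.22). CENPO had 80.7, 86.9 and 79.0 CPM in UHRF1-AID/DNMT1-AID cells, against 71.7, 74.4 and 76.0 CPM in WT cells, and MIS12 had 32.4, 32.5 and 33.8 CPM, against 29.8, 30.1 and 30.3 CPM in WT cells. For both genes the UHRF1-AID/DNMT1-AID libraries were above the WT libraries, but neither passed the test (0.15 and 0.13, adjusted p = 0.103 and 0.338). CENPO shares 27.0% of its exonic bases with ADCY3 and 4.6% with PTRHD1, both on the other strand.

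On day 6 few of the genes fell without a length offset. In UHRF1-AID cells 2 fell and 5 rose, against 10.5% of all genes lower and 14.3% higher. In DNMT1-AID cells 0 fell and 2 rose, against 4.35% lower and 8.84% higher, and 0 were lower at an unadjusted p under 0.05 in edgeR or by DESeq2. In UHRF1-AID/DNMT1-AID cells 2 fell and 8 rose, against 21.9% lower and 19.0% higher of all genes, so that the share of members was below the background for lower genes and close to it for higher genes. This split depended on the setting, at 8 lower and 9 higher with the length offset, 4 lower and 12 higher with length and GC content, 0 lower and 12 higher with DESeq2, and 1 lower and 16 higher with the compared groups only. The medians were 0.04, 0.09 and 0.11 in UHRF1-AID, DNMT1-AID and in UHRF1-AID/DNMT1-AID cells. With 1 library left out, the counts of called genes were 3 to 6, 0 to 1 and 5 to 8. For UHRF1-AID cells the count was 3 without WT replicate 3, and 4 without UHRF1-AID replicate 2 or WT replicate 1 or 2. For DNMT1-AID cells it was 0 without DNMT1-AID replicate 1 and 1 without any other library of the comparison, and for UHRF1-AID/DNMT1-AID cells it was 5 without WT replicate 2.

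The 3 called genes with the highest log2 fold changes on day 6 in UHRF1-AID/DNMT1-AID cells were subunits of the NDC80 complex. NUF2 had 36.2, 35.9 and 32.8 CPM in UHRF1-AID/DNMT1-AID cells, against 23.3, 24.3 and 23.9 CPM in WT cells (0.55, SE 0.13, adjusted p = 0.000935). SPC24 had 42.3, 45.4 and 42.5 CPM, against 31.4, 30.6 and 32.5 CPM in WT cells (0.46, SE 0.10, adjusted p = 0.000243), and NDC80 differed by 0.49 (SE 0.12, adjusted p = 0.0017). These 3 genes stayed called in UHRF1-AID/DNMT1-AID cells whichever library was left out, and under each alternative setting tried. SPC25, the other subunit of the complex, was not called, with 22.4, 18.5 and 17.9 CPM in these cells, against 17.1, 17.9 and 19.4 CPM in WT cells. In UHRF1-AID cells SPC24 was at 38.0, 44.1 and 40.5 CPM and rose by 0.38 (adjusted p = 0.00401). MAD2L1, the lowest member of day 8, had 59.9, 61.7 and 57.4 CPM in UHRF1-AID/DNMT1-AID cells on day 6, against 74.4, 73.2 and 62.3 CPM in WT cells, and did not pass the test (-0.23, SE 0.12, adjusted p = 0.111).

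The change of the difference from WT between days 2 and 8 was tested directly. It was lower on day 8 for 27 genes and higher for 0 in UHRF1-AID/DNMT1-AID cells (median -0.66), against 22.6% of all genes lower and 16.1% higher. In DNMT1-AID cells it was lower for 15 and higher for 0 (median -0.40), against 9.28% lower and 7.05% higher. At an unadjusted p under 0.05 it was higher for 0 genes in UHRF1-AID/DNMT1-AID cells and 1 in DNMT1-AID cells, and DESeq2 called 0 and 1 higher. In UHRF1-AID cells it was lower for 11 and higher for 1 (median -0.30), against 7.09% lower and 10.7% higher, and the total of 12 was 6 without UHRF1-AID day 2 replicate 2, UHRF1-AID day 8 replicate 2 or WT day 8 replicate 3, 5 without UHRF1-AID day 8 replicate 3 and 7 without WT day 2 replicate 1. With a replicate block within UHRF1-AID and DNMT1-AID cells the counts were 13 lower and 1 higher in UHRF1-AID cells and 17 lower and 1 higher in DNMT1-AID cells. The block lost no call and added CENPP (-0.38) and CENPN (-0.35) in UHRF1-AID cells, and TTK (-0.51, adjusted p = 0.00505), INCENP (-0.53) and CENPT (0.30) in DNMT1-AID cells. MAD2L1 showed a further fall of 1.66 on the log2 scale in UHRF1-AID/DNMT1-AID cells (SE 0.17, adjusted p = 2.48e-09), BUB1 of 1.35 (adjusted p = 7.01e-09) and BIRC5 of 1.34 (adjusted p = 7.35e-09). For CENPU, AURKB, SGO1 and CENPM the change did not pass the test in this line (0.19, -0.22, -0.29 and -0.28).

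**Figure D3:**
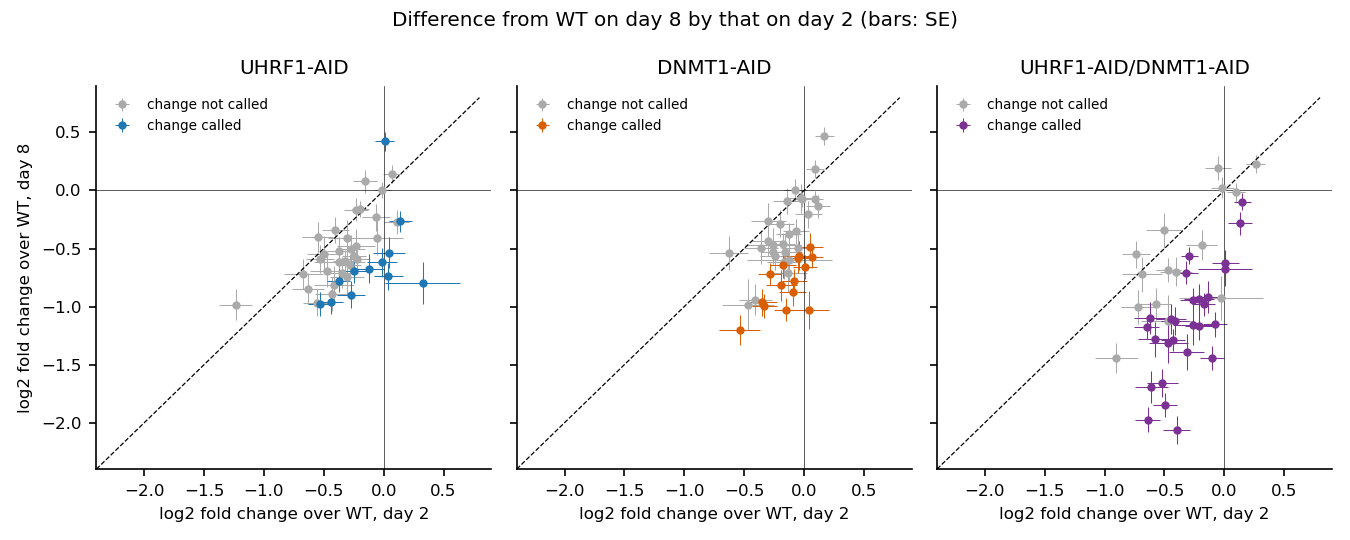
Log2 fold change over WT on day 8 (vertical) by that on day 2 (horizontal) for the 42 genes in UHRF1-AID, DNMT1-AID and in UHRF1-AID/DNMT1-AID cells, with bars of 1 SE. Colored points passed the test of the change (12, 15 and 27 genes), and the dashed line marks equal differences on both days. Most points lie below the line in each panel, farthest in UHRF1-AID/DNMT1-AID cells.

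In WT cells alone many of the 42 genes differed between days, as did many of all genes tested. Transcript length went with part of these differences. On day 6 against day 2, 23 of the 42 genes fell and 8 rose in WT cells (median -0.34), against 32.1% of all genes lower and 35.7% higher. With scaling by library size only, the split was 18 lower and 14 higher, against 21.5% of all genes lower and 47.2% higher, and the median of all genes shifted by 0.29. The 3 genes that rose most were among the 5 members longer than 9000 exonic bases. Of the same 5, NSL1 fell and CENPP (9315 bases) was not called. CENPP had 20.5, 20.1 and 21.0 CPM in WT cells on day 6, against 23.3, 24.6 and 22.4 CPM on day 2. CENPE (9928 bases) had 35.2, 27.2 and 33.9 CPM in WT cells on day 6, against 1.25, 0.721 and 1.03 CPM on day 2, a log2 fold change of 5.00 (SE 0.23, adjusted p = 1.78e-18). CENPF (12471 bases) had 150, 132 and 144 CPM on day 6, against 6.66, 4.38 and 3.73 CPM on day 2. KNL1 (10250 bases) had 54.7, 47.9 and 53.8 CPM on day 6, against 6.71, 6.10 and 5.18 CPM on day 2. These were 28.7-fold for CENPF and 8.68-fold for KNL1, and 55, 68 and 386 of all genes tested had a higher log2 fold change than CENPE, CENPF and KNL1. CENPE was counted thinly on day 2, with as few as 10 reads in a library.

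The same low levels held in all 4 lines on day 2. CENPE ranged from 0.575 to 1.51 CPM over the 12 libraries of day 2, from 27.2 to 42.4 CPM on day 6 and from 3.32 to 11.1 CPM on day 8. CENPF ranged from 2.91 to 6.66 CPM on day 2, from 132 to 189 CPM on day 6 and from 32.4 to 63.8 CPM on day 8. The day thus set the order of the groups for both genes, and the ranges of the 3 days did not overlap. SGO2 (6336 bases, 1.37), CENPC (8496 bases, 1.06) and INCENP (4454 bases, 1.04) also rose on day 6 in WT cells. In contrast the longest member, NSL1 (13867 bases), fell by 0.98, and the shortest, CENPW (854 bases), had a log2 fold change of -1.50. CENPW had 9.47, 11 and 10.1 CPM in WT cells on day 6, against 25.2, 31.9 and 29.5 CPM on day 2. MAD2L1 (5517 bases) fell by 1.33, with 74.4, 73.2 and 62.3 CPM on day 6, against 157, 197 and 172 CPM on day 2.

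**Figure D4:**
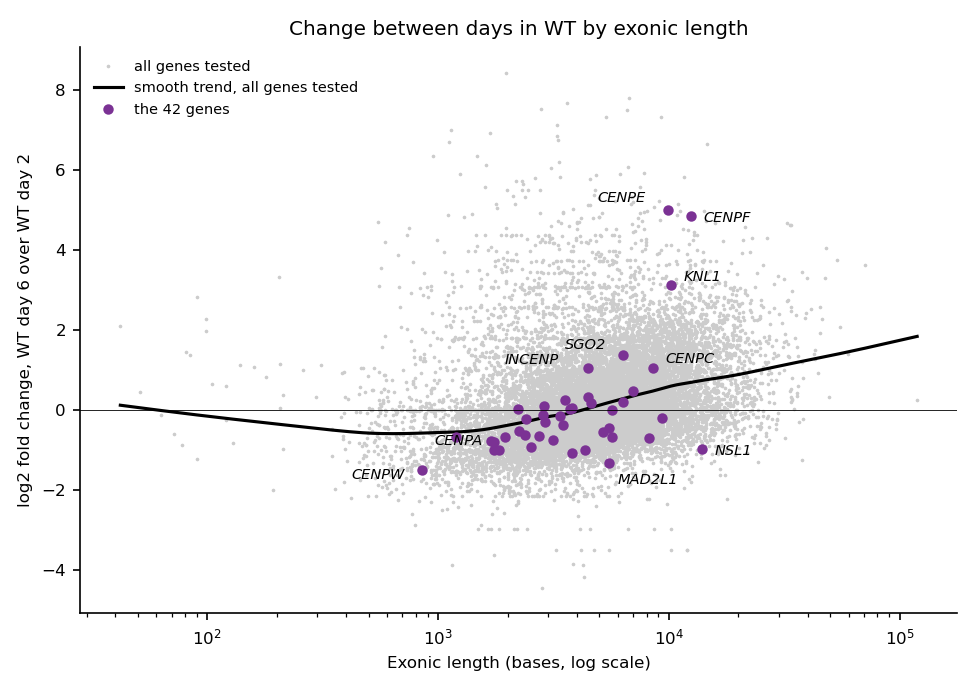
Log2 fold change of WT day 6 over WT day 2 by exonic length (log axis) for all 15415 genes tested (gray) and the 42 genes (purple), with the smooth trend of all genes as a black line. CENPE, CENPF and KNL1 lie far above the trend at their length, while NSL1 and MAD2L1 lie below it.

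Across all genes tested, the log2 fold change of WT day 6 over day 2 rose by 0.30 per doubling of exonic length, and its median was -0.36, -0.05, 0.22 and 0.60 in 4 equal bins of genes by length. Across the 42 genes the correlation with log2 length was 0.56, or 0.41 without CENPE, CENPF and KNL1, as a description over genes of the same libraries. With a length offset fitted per library, 15 of the 42 genes were lower and 10 higher in WT cells on day 6 (median -0.12), against 32.6% of all genes lower and 34.6% higher. CENPE, CENPF and KNL1 were still higher by 4.58, 4.30 and 2.69 with this offset, and by 5.11, 4.53 and 3.07 with an offset for length and GC content, under which 20 members were higher and 14 lower (median 0.17), against 35.3% of all genes higher and 27.6% lower. The median of the 42 genes in WT cells on day 6 thus changed sign with the offset for length and GC content, but not with length alone. The rise of these 3 genes kept its sign with either offset. On day 8 against day 2 in WT cells 19 genes were lower and 9 higher (median -0.17), against 29.7% of all genes lower and 30.1% higher, and with library size only 11 were lower and 13 higher, against 20.7% lower and 37.2% higher. On day 8 against day 6 in WT cells 18 were higher and 5 lower (median 0.24), against 17.6% higher and 17.0% lower, and CENPE, CENPF and KNL1 were among the 5. That count of 23 fell to 13 without WT day 8 replicate 1 and to 15 without WT day 8 replicate 3 or WT day 6 replicate 3, and with library size only it was 5 higher and 5 lower, against 9.47% of all genes higher and 24.3% lower. RNA quality was not given in the sources used here, and its part in the shift with length was not tested.

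Within the module the correlation of the day 8 difference with log2 length was -0.02 in UHRF1-AID/DNMT1-AID cells. Over all genes the slope was -0.37 per doubling in UHRF1-AID/DNMT1-AID cells on day 8, with medians of 0.40, 0.11, -0.08 and -0.21 in the 4 length bins. The 42 genes had a median exonic length of 3778.5 bases, against 4997 for all genes tested, and 40 of them lay below the trend at their own length, by a median of 1.05. With the length offset, 39 of the 42 fell and 2 rose in UHRF1-AID/DNMT1-AID cells (median -1.20), against 36.2% of all genes lower and 31.6% higher. In UHRF1-AID cells 34 fell (median -0.70), against 23.0%, and in DNMT1-AID cells 33 fell (median -0.73), against 23.2%. With length and GC content, 33 fell and 1 rose in UHRF1-AID/DNMT1-AID cells (median -0.85), against 32.5% of all genes lower and 34.1% higher. CENPC, CENPE, CENPF, CENPU, NSL1 and BUB3 lost their calls in this setting, and CENPB, at 0.02 without an offset, fell by 0.83. CENPT, at 0.23 without an offset, was at -0.02 with it.

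**Figure D5:**
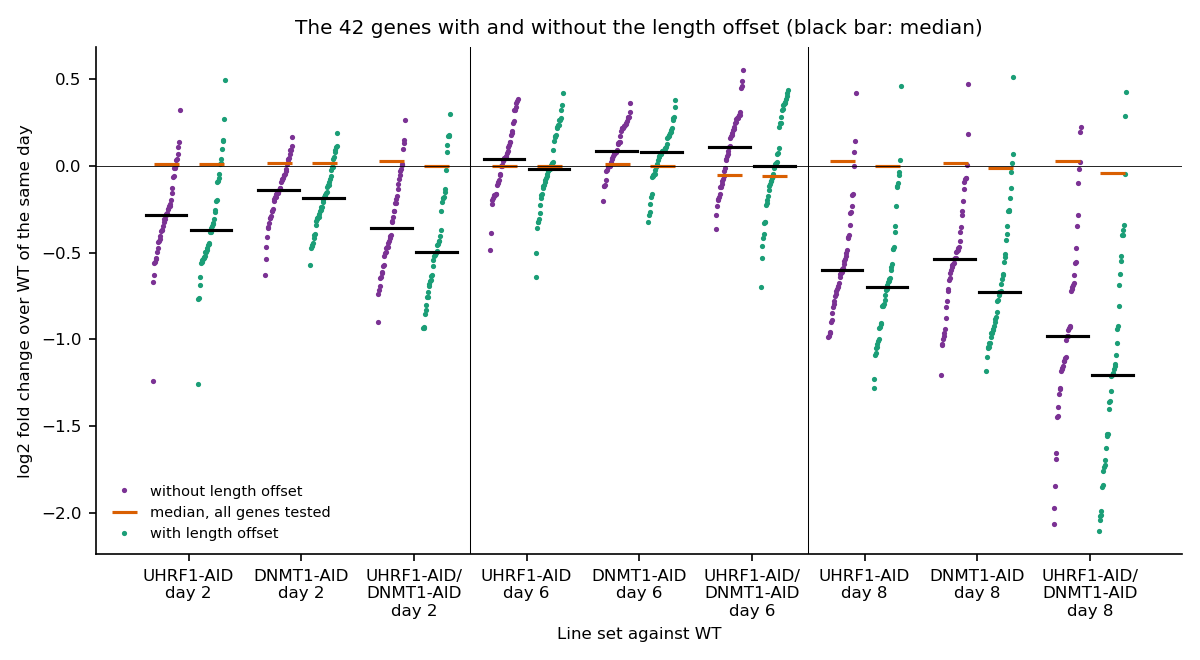
Log2 fold change over WT of the 42 genes in each line on days 2, 6 and 8, without (purple) and with (green) the length offset. Black bars are medians of the 42 genes and orange bars medians of all genes tested. The day 8 medians are -0.60, -0.54 and -0.98 without the offset, and -0.70, -0.73 and -1.20 with it.

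Levels between genes were compared per length, as TPM (counts divided by exonic length and scaled to a common sum per library). In UHRF1-AID/DNMT1-AID cells on day 8 CENPB led at 123 ± 17.6 TPM, ahead of BIRC5 at 48.0 ± 10.0 TPM, whereas in WT cells BIRC5 was at 196 ± 12.5 TPM and CENPB at 181 ± 7.62 TPM (SD, n = 3 each). BIRC5 and CENPB were within their spread of each other in WT cells and apart in UHRF1-AID/DNMT1-AID cells. PMF1 (46.3 TPM) and BUB3 (39.6 TPM) came next in UHRF1-AID/DNMT1-AID cells and ZWINT (117 TPM) in WT cells. CENPE was the lowest of the 42 in both groups, at 1.27 TPM in UHRF1-AID/DNMT1-AID cells and 3.54 TPM in WT cells.

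Other genes of the pathway and of the cell cycle were counted from 2 further lists, also chosen with earlier results of these data known. Among 25 other centromere, checkpoint and anaphase genes, 21 fell and 2 rose on day 8 in UHRF1-AID/DNMT1-AID cells (median -1.02), 20 fell and 2 rose in UHRF1-AID cells (median -0.56), and 21 fell and 2 rose in DNMT1-AID cells (median -0.51). Of all genes tested, 32.8%, 21.0% and 22.4% were lower on day 8 in UHRF1-AID/DNMT1-AID, UHRF1-AID and DNMT1-AID cells. In that order, 35.7%, 24.2% and 25.1% were higher. On day 6 the same list of 25 had 2 lower and 9 higher genes in UHRF1-AID/DNMT1-AID cells, against 21.9% of all genes lower and 19.0% higher. Among 20 genes of cycling cells, 20, 19 and 20 fell on day 8 in UHRF1-AID, DNMT1-AID and in UHRF1-AID/DNMT1-AID cells, against 21.0%, 22.4% and 32.8% of all genes. Their summed level was 1690, 1810 and 1170 CPM in the 3 lines, against 2830 CPM in WT cells. On day 6, 12, 1 and 11 of these 20 fell, with medians of -0.44, -0.03 and -0.36, against 10.5%, 4.35% and 21.9% of all genes lower. The cycling genes were lower on day 8 together with the kinetochore genes, and the part of the share of cycling cells in the day 8 differences was not tested.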

How the data were processed

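Poly-A RNA from 36 HCT116 libraries (12 groups of line and day, 3 libraries each) was read in pairs from a kit that does not mark strand. Per the labels, the authors aligned reads to hg38 with STAR and counted them per gene with featureCounts, and the deposited values are raw counts. Strand setting, handling of shared reads and annotation release are not given in the sources used here. Members and lists were chosen with earlier results of these data known.

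Counts of protein-coding genes (GENCODE 44 names and exonic lengths) with the filterByExpr minimum count of 10 were fitted in edgeR 4.0.16 under R 4.3.3, with TMM scaling, 1 mean per group and robust quasi-likelihood dispersions (common dispersion 0.0115, 24 residual degrees of freedom). Two-sided p-values were adjusted over all 15415 genes by the Benjamini-Hochberg method, and SE is the log2 fold change divided by the root of F. The length offset was a natural spline with 5 degrees of freedom per library. Alternatives were DESeq2 1.42.0, library size only, no filter, the compared groups only, length or length with GC offsets, a replicate block, and leaving out each library. By the correlation of deviations from group means, replicate numbers paired libraries across days within UHRF1-AID and DNMT1-AID cells (every pair above 0.1). A replicate block within these 2 lines was therefore added for the change between days after the data were seen. By this mark they did not pair libraries within the other lines or between lines. UHRF1-AID/DNMT1-AID cells came near the mark for day 6 against day 2 (0.09 to 0.14, against -0.1 to -0.02 for unlike numbers). For day 8 against day 2 they did not (-0.07 to 0.1, against -0.09 to 0.12). The code was tested on simulated data. Libraries of 1 group differed beyond sampling noise (chi-square per degree of freedom of 3.74 to 56.3), so each was counted as 1 sample.

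Values in every library are given for CENPA, CENPE and CENPF, for the lowest and highest member of each role group in UHRF1-AID/DNMT1-AID against WT on day 8, for the 2 highest and 2 lowest in WT day 6 against day 2, and for the 3 highest in UHRF1-AID/DNMT1-AID against WT on day 2. Other members named with library values were chosen after their values were seen.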

Additional observations from a re-analysis of the deposited data

Results flagged for a closer look

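The difference from WT changed between days 2 and 8 by a direct test of that change, in edgeR's quasi-likelihood fit, for 27 genes in UHRF1-AID/DNMT1-AID cells, 15 in DNMT1-AID cells and 11 in UHRF1-AID cells, all lower on day 8, and for 1 gene (CENPT) in UHRF1-AID cells that was higher on day 8. Among the members described by library, the change in UHRF1-AID/DNMT1-AID cells was -1.66 for MAD2L1, -1.14 for SGO2, -1.08 for CENPA, -1.08 for INCENP, -0.85 for CENPK, -0.71 for ZWINT and -0.53 for HJURP, and these 7 were called whichever library was left out. It was -0.68 for CENPF, -0.41 for MIS12, -0.27 for BUB3 and -0.25 for CENPO, and each of these 4 lost its call when some library was left out. CENPF ranged down to -0.51 (without WT day 2 replicate 3), MIS12 to -0.34 (without WT day 8 replicate 1), BUB3 to -0.17 (without UHRF1-AID/DNMT1-AID day 8 replicate 2) and CENPO to -0.20 (without UHRF1-AID/DNMT1-AID day 8 replicate 1). On day 8 and day 2 the difference itself was -0.674 and 0.005 for CENPF and -0.095 and 0.151 for CENPO in these cells.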

How the results depend on the processing

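On day 8 the counts of called genes and the medians of all 3 lines kept their direction and stayed within 1.5 times under every setting. Counts moved by more than that elsewhere. For DNMT1-AID on day 2 the count of 1 became 3 with DESeq2, the length offset or the compared groups only, 4 with length and GC, 5 with the block and length, and 7 with library size only. For day 6, UHRF1-AID (7) became 11 with length and GC. DNMT1-AID (2) became 13 with the compared groups only, and 1 with library size only or no filter. UHRF1-AID/DNMT1-AID (10) became 16 with length and GC, and 17 with length, the compared groups only, or the block and length. WT day 8 against day 6 (23) became 15 with length and GC, 13 with length and 10 with library size only. The change from day 2 to day 8 became 5 with length and GC in UHRF1-AID (12) and 24 with the block and length in DNMT1-AID (15). UHRF1-AID/DNMT1-AID against UHRF1-AID (26) became 17, and UHRF1-AID against DNMT1-AID (4) became 0, with the compared groups only, the last also 2 with length. Beyond the filters and samples that these settings change, the cause was not tested.

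Leaving out 1 library gave 11 to 20, 0 to 2 and 18 to 23 called genes for UHRF1-AID, DNMT1-AID and then UHRF1-AID/DNMT1-AID on day 2. The ranges were 3 to 6, 0 to 1 and 5 to 8 on day 6, and 29 to 36, 31 to 33 and 36 to 38 on day 8, in the same order. It gave 29 to 31, 24 to 27 and 13 to 20 for WT day 6 against 2, 8 against 2 and 8 against 6, and 5 to 15, 10 to 15 and 22 to 27 for the changes. The comparisons of UHRF1-AID/DNMT1-AID with UHRF1-AID and DNMT1-AID, and of these with each other, gave 20 to 29, 23 to 30 and 0 to 4. Where this left 2 libraries, the spread came from all groups.

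With length and GC, signs turned for UHRF1-AID/DNMT1-AID day 6 BUB3 (0.10) and AURKB (-0.01), day 8 CENPB (-0.83) and CENPT (-0.02), the change of CENPB (-0.58) and BUB3 (0.08), DNMT1-AID day 8 CENPB (-0.46), PMF1 (-0.14) and BUB3 (0.22), and in WT day 6 against day 2 CENPA (0.01), MIS18A (0.17), CENPT (-0.38), ZWINT (0.03) and the median (0.173), with the WT day 8 against day 2 median at 0.231. With length, also with the block, they turned for day 8 CENPB in DNMT1-AID (-0.25) and UHRF1-AID/DNMT1-AID (-0.40), PMF1 in DNMT1-AID (-0.13) and the UHRF1-AID/DNMT1-AID day 6 median (-0.001). With library size only the WT day 8 against day 2 median was 0.006. This scaling shifted the median of all genes by -0.187 and -0.178 in UHRF1-AID/DNMT1-AID and DNMT1-AID on day 8, by -0.135 and -0.12 in these lines on day 2, and by 0.291, 0.173 and -0.118 in WT day 6 against 2, 8 against 2 and 8 against 6. On day 8 it was -0.114 for UHRF1-AID/DNMT1-AID against UHRF1-AID and 0.105 for UHRF1-AID against DNMT1-AID.

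Between lines and between days of WT, replicate numbers did not pair the libraries: in 0 of 15 comparisons did all same-numbered pairs correlate above 0.1. Within UHRF1-AID and DNMT1-AID cells they did. With a replicate block within these lines, chosen after seeing the data, the change gave 14 and 18 called genes, 20 and 25 with length, and 7 and 16 with length and GC. With 1 replicate block over all lines the counts on day 2 were 19, 1 and 23 for UHRF1-AID, DNMT1-AID and then UHRF1-AID/DNMT1-AID. In that order those of day 6 were 7, 3 and 10, and those of day 8 were 36, 34 and 38. They were 31, 29 and 25 for WT, 12, 15 and 28 for the changes and 27, 29 and 4 between lines. Depth limited CENPE most, with 10 reads in its lowest library.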
